A study of Homo sapiens with 15 samples.

Results

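The genes described here are 10 members of the mTOR signalling axis, picked by gene symbol out of the 12995 genes in the tables of normalised read counts. They are MTOR, RPTOR, RICTOR and MLST8 of the mTOR complexes, TSC1, TSC2 and RHEB of the switch upstream, and EIF4EBP1, EIF4EBP2 and RPS6KB1 downstream. All 10 were measured in all 15 libraries, with between 24 and 1044 reads per gene and library. Messenger RNA was read from its 3′ end in 5 groups of 3 libraries. OKF6 is a line of normal oral epithelial cells. SCC15 and SCC25 are lines of oral squamous cell carcinoma. They had been transduced with Cas9 and with guide RNA, switched on by doxycycline, that targets YBX1, a protein that binds DNA and RNA. Without doxycycline they are the +YBX1 groups. Treated with doxycycline at 1 µg/mL for 3 days they are the -YBX1 groups, which the labels call a knockout and the study's methods a knockdown. No group received doxycycline without guide RNA against YBX1, so loss of YBX1 and doxycycline itself cannot be told apart. Transduced cells were sorted on fluorescent markers and then expanded, and the methods describe no picking of clones. The medium was keratinocyte serum-free medium for OKF6 and SCC25 but DMEM plus fetal bovine serum for SCC15, for which line and medium cannot be told apart. The labels name no guide for OKF6, so in comparisons with OKF6 line and transduction cannot be told apart. The labels do not say whether replicates were separate cultures, and p-values measure the spread between libraries, which may be technical.

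As background, mTOR is a protein kinase that matches growth to nutrients and growth factors, and it works in complexes of different make-up. mTORC1 holds raptor (RPTOR), which brings in substrates, and mTORC2 holds rictor (RICTOR) and phosphorylates AKT, while mLST8 belongs to both. Hamartin (TSC1) and tuberin (TSC2) form a complex that switches off the small GTPase RHEB, the direct activator of mTORC1. Active mTORC1 phosphorylates the 4E-BP proteins, which otherwise hold the cap-binding factor eIF4E and block translation, and the S6 kinase encoded by RPS6KB1. This signalling runs through phosphorylation of proteins, and the values here are RNA levels. Phosphatidylinositol 3-kinase (PI3K) signalling, often altered in head and neck cancer, feeds into it through AKT and TSC2.

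YBX1 takes its name from the Y-box, a promoter element whose core reads ATTGG on 1 strand. The other strand reads CCAAT, and the promoters were searched for both. RefSeq promoters on GRCh38.p14 were at hand for 8 of the 10 members, and in the 250 bases before the start the core was present in 3 of them, MTOR, RHEB and RICTOR. It was found in 32.8% of the 15053 promoters of the genes in the tables. The MTOR promoter held it at 3 places, 196, 75 and 34 bases before the start, a number reached by 3.95% of these promoters. The 3 stretches are shown because they hold the core, written 5′ to 3′ on the strand of the gene with the core in capitals. MTOR is chr1:11262552-11262771, RICTOR chr5:39074400-39074459 and RHEB chr7:151519896-151520015, each on the minus strand and ending at the base before the start.
MTOR: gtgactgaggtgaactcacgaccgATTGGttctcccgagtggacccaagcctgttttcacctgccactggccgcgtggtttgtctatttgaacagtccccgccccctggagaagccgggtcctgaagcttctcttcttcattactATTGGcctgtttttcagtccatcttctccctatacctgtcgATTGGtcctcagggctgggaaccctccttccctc
RICTOR: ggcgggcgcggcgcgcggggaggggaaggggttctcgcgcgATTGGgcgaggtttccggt
RHEB: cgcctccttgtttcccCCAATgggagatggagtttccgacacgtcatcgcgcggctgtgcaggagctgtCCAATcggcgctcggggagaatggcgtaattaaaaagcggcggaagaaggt
TSC1, TSC2, EIF4EBP2, RPS6KB1 and RPTOR had no match in this window. A match describes the sequence and is not evidence of binding, and the RNA values of these genes with and without YBX1 are given at the end.

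The members lie on 8 chromosomes of hg38. MTOR is at chr1:11106535-11262556 on the minus strand with 58 exons in its canonical transcript, RPTOR at chr17:80544819-80966371 on the plus strand with 34, RICTOR at chr5:38937920-39074402 on the minus strand with 38 and MLST8 at chr16:2204248-2209453 on the plus strand with 9. TSC1 is at chr9:132891348-132946874 on the minus strand, TSC2 at chr16:2047967-2089491 on the plus strand and RHEB at chr7:151466012-151520120 on the minus strand. EIF4EBP1 is at chr8:38030534-38060365, EIF4EBP2 at chr10:70404145-70428618 and RPS6KB1 at chr17:59893046-59950574, all on the plus strand. Reads fall near the 3′ end, where 5 members overlap another annotated gene within the last 500 bases. TSC2 overlaps PKD1, RICTOR overlaps OSMR, MLST8 overlaps BRICD5 and RPTOR overlaps a long non-coding RNA, each on the opposite strand. RPS6KB1 overlaps another protein-coding gene on its own strand. The strand setting of the read counting is not given in the sources used here, so reads of the opposite-strand pairs may not have been kept apart. For RPS6KB1 and the gene on its own strand no strand setting could keep shared reads apart. Whether that gene was in the annotation used for counting is not given here. When the last bases of each member were cut into 86 stretches of 75 bases, 0 mapped equally well elsewhere in the genome.

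Libraries held 4075290 to 6118501 counted reads, and values are log2 CPM as deposited, that is, reads scaled to a common library size on the log2 scale. In the text the 3 values of a group are in the order of replicates 1 to 3. OKF6 replicate 1 stood apart from the other 2 OKF6 libraries, and the members' differences from OKF6 are also given without it where they move. The 10 epithelial markers summed to 27120 to 37478 CPM in OKF6 and to 13016 to 23981 CPM in SCC25 +YBX1, but to 92.6 to 126 CPM in SCC15 +YBX1, where TP63 and DSG3 were at no more than 3 reads in every library. The study calls SCC15 mesenchymal-like, and SCC15 lacks most of the epithelial marker RNA of the other lines. All 10 were lower in SCC15 +YBX1 than in both other lines (limma, adjusted p under 0.05), and the part of this in the results on SCC15 was not tested. The 8 mesenchymal markers summed to 1073 to 1942 CPM in OKF6, 2835 to 3397 CPM in SCC25 +YBX1 and 468 to 498 CPM in SCC15 +YBX1. Gene by gene, 4 of the 8 were higher and 3 lower in SCC15 than in OKF6 (median log2 change 1.85), and 3 were higher and 4 lower than in SCC25. Of 10 markers of fibroblasts, endothelium, leukocytes and melanocytes 2 were measured, at a summed 11.5 to 98.1 CPM in the OKF6 and +YBX1 libraries.

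The targeted gene, YBX1, was at 6.74, 6.3 and 6.62 log2 CPM in SCC25 +YBX1 and at 5.26, 4.70 and 3.65 in the SCC25 knockdown. The SCC15 values were 5.11, 5.56 and 6.00 with YBX1 and at 3.36, 3.71 and 3.13 in the knockdown. The -YBX1 libraries lay below the +YBX1 libraries in both lines, a change of -75.2% in SCC25 and of -77.5% in SCC15. Over both lines together the fall of 2.08 ± 0.24 on the log2 scale (standard error) passed the test (limma with Benjamini-Hochberg adjustment over 12995 genes, adjusted p = 0.0103), and in each line alone it did not (adjusted p = 0.290 in SCC25 and 0.326 in SCC15). Both carcinoma lines also had less YBX1 RNA than OKF6, where the values were 6.76, 8.15 and 8.37 (adjusted p = 0.000707 for SCC15 and 0.0375 for SCC25). In these bulk libraries, fewer cells with a transcript and less of it per cell cannot be told apart.

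Group means of the members spanned 0.38 (RHEB) to 1.79 (EIF4EBP1) log2 units, with a median of 1.01, against a median of 1.56 over all genes of the tables. The median SD within a group was 0.50 in OKF6 for the members, 0.17 in SCC15 +YBX1, 0.26 in SCC25 +YBX1, 0.18 in SCC15 -YBX1 and 0.34 in SCC25 -YBX1. A value is compared only with other values of the same gene, since a 3′ read count does not rank genes against each other.

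The first question was how the carcinoma lines differ from normal oral cells and from each other in the RNA of this axis. SCC15 +YBX1 differed from OKF6 in 5 of the 10 members, with RPTOR, TSC2 and EIF4EBP2 higher and RICTOR and MTOR lower. This is the share found over all genes, of which 50.3% differed, 26.9% higher and 23.4% lower. SCC25 +YBX1 differed from OKF6 in 3 members, with EIF4EBP1 and RPTOR higher and RPS6KB1 lower, where 30.2% of all genes differed, 18.9% higher and 11.3% lower. Between the carcinoma lines, 3 members differed, with RICTOR lower and TSC2 and RPS6KB1 higher in SCC15, where 43.6% of all genes differed, 20% higher and 23.6% lower. With no normalisation factor the share of higher genes among those that differed went from 45.9% to 61.7% here, and with quantile normalisation from 62.5% to 52.1% in SCC25 against OKF6. The median change of the members was 0.58 for SCC15 against OKF6, 0.11 for SCC25 against OKF6 and 0.10 for SCC15 against SCC25 on the log2 scale, beside 0.10, 0.13 and -0.01 for all genes. Libraries of the groups did not overlap for 6 members in SCC15 against OKF6, 3 in SCC25 against OKF6 and 8 in SCC15 against SCC25, where the shares over all genes were 54.4%, 43.3% and 66.6%. The members thus stood at or below the background in all 3 comparisons by the adjusted p.

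Of the mTOR complexes, RICTOR, the subunit that defines mTORC2, showed the widest separation. It was at 4.29, 3.39 and 3.69 log2 CPM in OKF6, at 3.55, 3.95 and 3.21 in SCC25 +YBX1 and at 2.16, 2.50 and 2.23 in SCC15 +YBX1. Every SCC15 library was below every library of the other lines, while OKF6 and SCC25 overlapped. The SCC15 libraries held only 24 to 33 reads each for this gene. RICTOR was lower in SCC15 than in OKF6 by a log2 change of -1.50 ± 0.37 (35.5% of the OKF6 level, limma, adjusted p = 0.00605), and a log2 change of -1.24 was found without OKF6 replicate 1 (adjusted p = 0.0150). Against SCC25 the change was -1.28 ± 0.37 (adjusted p = 0.0169). That difference missed the threshold without SCC15 replicate 3, SCC25 replicate 1 or SCC25 replicate 2 and with no normalisation factor, with an adjusted p of at most 0.0800. SCC25 and OKF6 differed by -0.22 (95% interval -1.04 to 0.60, adjusted p = 0.686).

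RPTOR, the subunit that defines mTORC1, went the other way in SCC15. Its values were 4.50, 3.48 and 3.63 log2 CPM in OKF6, 4.53, 4.96 and 4.64 in SCC15 +YBX1 and 4.95, 4.53 and 5.05 in SCC25 +YBX1. OKF6 replicate 1 lay just under the lowest carcinoma libraries and the other 2 OKF6 libraries far below. RPTOR was higher than in OKF6 in SCC15 by 0.84 ± 0.31 (1.79-fold, limma, adjusted p = 0.0462) and in SCC25 by 0.97 ± 0.31 (1.96-fold, adjusted p = 0.0391). Without OKF6 replicate 1 these changes were 1.15 and 1.29 (adjusted p = 0.00323 and 0.00314). With any other library of the 3 lines left out, both missed the threshold, with an adjusted p of up to 0.150 and 0.132. The carcinoma lines overlapped in RPTOR, and their difference of -0.13 (95% interval -0.83 to 0.56) turned positive, up to 0.21, when libraries were scaled in other ways.

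MTOR, the kinase itself, was at 5.61, 5.96 and 5.30 log2 CPM in OKF6, at 5.53, 5.39 and 5.63 in SCC25 +YBX1 and at 4.92, 4.96 and 5.25 in SCC15 +YBX1. The SCC15 libraries were the lowest in both comparisons, by a narrow margin over OKF6 replicate 3. MTOR was lower in SCC15 than in OKF6 by a log2 change of -0.58 ± 0.22 (66.7% of the OKF6 level, limma, adjusted p = 0.0477). This call rested at the threshold, since 17 of 20 alternatives missed it, with an adjusted p of up to 0.202 when no normalisation factor was applied, and without OKF6 replicate 1 it read 0.0499. Against SCC25 the change was -0.47 (adjusted p = 0.109), and SCC25 differed from OKF6 by -0.11 (95% interval -0.60 to 0.38).

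MLST8, shared by both complexes, was at 2.64, 3.86 and 4.87 log2 CPM in OKF6, a wider spread than that of any other member in any group. It was at 4.21, 4.84 and 4.80 in SCC15 +YBX1 and at 3.85, 4.2 and 3.85 in SCC25 +YBX1. The SCC15 libraries lay above the SCC25 libraries, but the difference of 0.65 did not pass the test (95% interval -0.42 to 1.72, limma, adjusted p = 0.301). Neither carcinoma line was told apart from OKF6 (differences of 0.83 and 0.18, adjusted p = 0.178 and 0.815). Without OKF6 replicate 1, the lowest MLST8 value of all, these were 0.25 and -0.40 (adjusted p = 0.559 and 0.385). Without OKF6 replicate 3, at 4.87, the SCC15 difference was 1.37 and passed the threshold (limma, adjusted p = 0.0190), and that of SCC25 was 0.72 and did not. The result for SCC15 thus depends on which OKF6 library is left out.

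In the TSC and RHEB switch, TSC2, which encodes the part of the complex that acts on RHEB, was at 3.60, 4.11 and 4.83 log2 CPM in OKF6 and at 4.28, 4.42 and 4.40 in SCC25 +YBX1. In SCC15 +YBX1 it was at 5.27, 5.28 and 5.54. All SCC15 libraries were above all others. TSC2 was higher in SCC15 than in OKF6 by 1.18 ± 0.30 (2.27-fold, limma, adjusted p = 0.00771), and by 0.89 without OKF6 replicate 1 (adjusted p = 0.0119). Against SCC25 it was higher by 1.00 ± 0.30 (1.99-fold, adjusted p = 0.0219). With a library left out this second difference stayed between 0.91 and 1.04, and it missed the threshold without SCC15 replicate 2 or 3 or any 1 of the SCC25 libraries, with an adjusted p of at most 0.0822.

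TSC1, the partner that stabilises tuberin, differed in no comparison. Its values ran from 3.55 to 4.22 log2 CPM over the OKF6 and +YBX1 libraries, and the groups overlapped throughout. The difference of SCC15 from OKF6 was -0.31 (95% interval -0.97 to 0.34, limma, adjusted p = 0.404), that of SCC25 from OKF6 -0.08 (-0.73 to 0.58) and that of SCC15 from SCC25 -0.23 (-0.89 to 0.42). Without OKF6 replicate 1 the first 2 were -0.21 and 0.02. RHEB was as even, at 5.89, 4.91 and 5.75 log2 CPM in OKF6, 5.86, 5.96 and 5.89 in SCC15 +YBX1 and 5.57, 5.79 and 5.35 in SCC25 +YBX1. The SCC15 libraries lay above the SCC25 libraries, by 0.33 on average (95% interval -0.25 to 0.91, adjusted p = 0.333). OKF6 overlapped both lines, with differences of 0.38 for SCC15 and 0.05 for SCC25 that read 0.57 and 0.24 without OKF6 replicate 1 (adjusted p = 0.0730 and 0.471).

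Downstream of mTORC1, the 4E-BP genes differed in different lines. EIF4EBP1 was at 4.0, 5.52 and 5.68 log2 CPM in OKF6, at 5.70, 5.81 and 6.01 in SCC15 +YBX1 and at 6.96, 7.16 and 6.45 in SCC25 +YBX1. The 3 lines did not overlap, in the order OKF6, SCC15, SCC25, although OKF6 replicate 3 and SCC15 replicate 1 nearly touched. EIF4EBP1 was higher in SCC25 than in OKF6 by 1.79 ± 0.39 (3.45-fold, limma, adjusted p = 0.00647), or by 1.25 without OKF6 replicate 1 (adjusted p = 0.00149). The difference of SCC15 from OKF6 was 0.77 (adjusted p = 0.126), and 0.24 without OKF6 replicate 1 (adjusted p = 0.386). That of SCC15 from SCC25 was -1.02 (adjusted p = 0.0573), and it passed the threshold in the fit without OKF6 (adjusted p = 0.00138).

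EIF4EBP2 was at 6.97, 6.1 and 6.58 log2 CPM in OKF6, at 6.89, 6.50 and 7.13 in SCC25 +YBX1 and at 7.57, 7.33 and 7.30 in SCC15 +YBX1. The SCC15 libraries lay above all others. EIF4EBP2 was higher in SCC15 than in OKF6 by 0.85 ± 0.25 (1.80-fold, limma, adjusted p = 0.0152), and by 1.06 without OKF6 replicate 1 (adjusted p = 0.00204). It missed the threshold without SCC15 replicate 1 (0.76, adjusted p = 0.0551). Against SCC25 the difference was 0.56 (adjusted p = 0.0910), and SCC25 and OKF6 overlapped (0.28, adjusted p = 0.416).

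RPS6KB1 was the member that was lower in SCC25 than in both other lines. It was at 4.68, 4.52 and 4.38 log2 CPM in OKF6, at 5.01, 4.37 and 4.21 in SCC15 +YBX1 and at 3.51, 3.86 and 3.39 in SCC25 +YBX1. The SCC25 libraries were below all others, and SCC15 enclosed OKF6. RPS6KB1 was lower in SCC25 than in OKF6 by a log2 change of -0.94 ± 0.29 (52.2% of the OKF6 level, limma, adjusted p = 0.0321, or -0.86 and 0.0459 without OKF6 replicate 1). It was higher in SCC15 than in SCC25 by 0.94 ± 0.29 (1.92-fold, adjusted p = 0.0222). Without SCC25 replicate 1 or 3 both missed the threshold, and without SCC15 replicate 1 so did the second, with adjusted p up to 0.107 and 0.0853. SCC15 and OKF6 differed by 0.01 (95% interval -0.64 to 0.65).

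**Figure D1:**
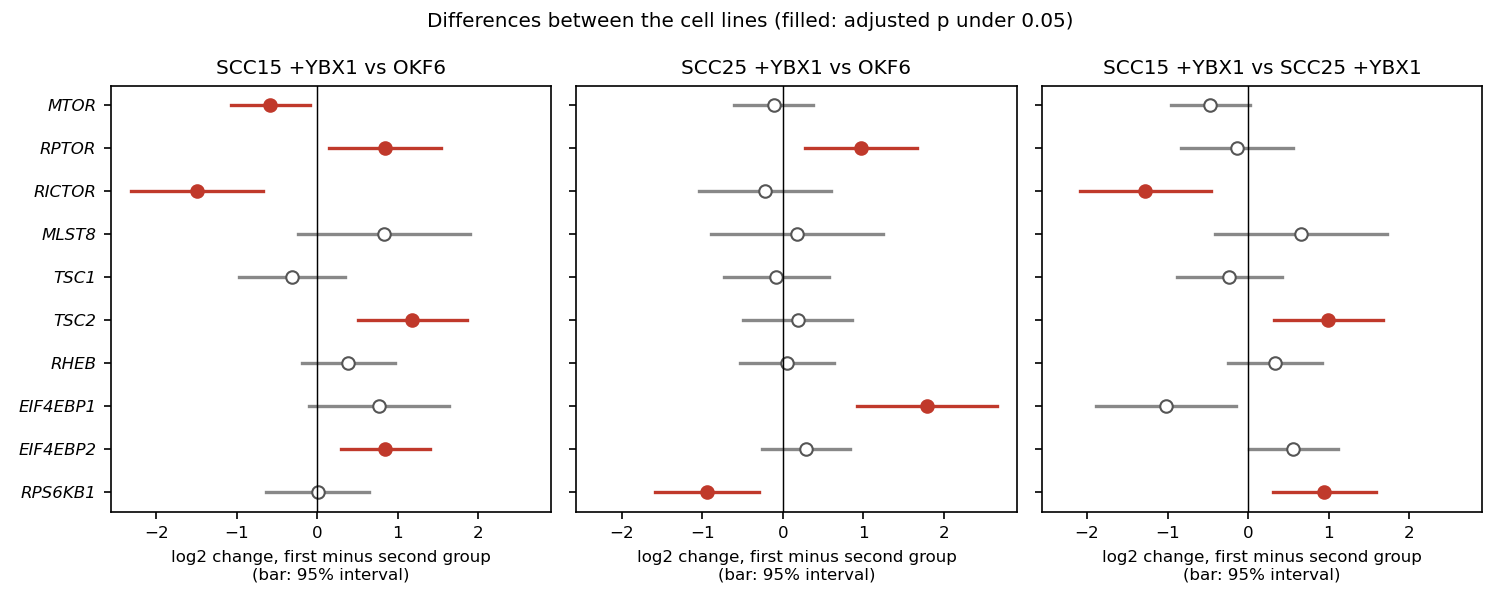
Log2 change of each member (rows) in the 3 comparisons of +YBX1 and OKF6 groups, with points for the estimate, bars for the 95% interval and filled points for an adjusted p under 0.05 (limma, 3 libraries per group). In SCC15 against OKF6, RICTOR lay furthest to the left at -1.50 and TSC2 furthest to the right at 1.18; in SCC25 against OKF6, EIF4EBP1 lay furthest to the right at 1.79.

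Since partners of the same step differed in their pattern, the log2 ratio of RPTOR to RICTOR, of EIF4EBP1 to EIF4EBP2 and of TSC2 to TSC1 was also taken within each library, where the scaling of the library cancels. These ratios were chosen after their values had been seen, the level of a ratio has no meaning between genes, and an exact two-sided permutation test of 3 against 3 libraries cannot go below p = 0.1. The ratio of RPTOR to RICTOR was 0.21, 0.09 and -0.06 in OKF6, 1.40, 0.58 and 1.84 in SCC25 +YBX1 and 2.37, 2.46 and 2.41 in SCC15 +YBX1. The 3 lines did not overlap, and among the OKF6 libraries both genes were highest in replicate 1, so that their ratio varied less (SD 0.13) than either gene (SD 0.55 and 0.46). The mean ratio of RPTOR to RICTOR was 2.33 log2 units higher in SCC15 than in OKF6 and 1.14 higher than in SCC25 (exact permutation p = 0.1 for each, 0.188 after adjustment over 15 such tests). The ratio of TSC2 to TSC1 was 1.45, 1.73 and 1.78 in SCC15 +YBX1, above all libraries of OKF6 (-0.62, 0.00 and 1.1) and of SCC25 +YBX1 (0.21, 0.87 and 0.20). The ratio of EIF4EBP1 to EIF4EBP2 was 0.07, 0.66 and -0.68 in SCC25 +YBX1, above -1.88, -1.52 and -1.29 in SCC15 +YBX1, and overlapped with -2.98, -0.58 and -0.90 in OKF6. In SCC15 -YBX1 the ratio of RPTOR to RICTOR, at 2.00, 1.70 and 2.04, lay below SCC15 +YBX1, and that of EIF4EBP1 to EIF4EBP2, at 0.80, -0.66 and -1.06, lay above it (differences of -0.50 and 1.26, exact permutation p = 0.1 for each). Without SCC15 -YBX1 replicate 1 these differences were -0.54 and 0.70. In SCC25 no ratio set the -YBX1 libraries apart.

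Of 102 other genes of the mTOR pathway listed by role, 97 were measured. SCC15 +YBX1 differed from OKF6 in 42 of them, 22 higher and 20 lower, and SCC25 +YBX1 differed from OKF6 in 21, 13 higher and 8 lower. SCC15 differed from SCC25 in 38, 15 higher and 23 lower. Against the shares over all genes, given above, these counts were 43.3%, 21.6% and 39.2% of those measured. Their median changes were 0.07, -0.03 and 0.03 on the log2 scale. The count for SCC25 against OKF6 rose to 34 without OKF6 replicate 1, where 3278 of all genes were higher and 2053 lower, against 2450 and 1473 with all libraries.

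By role, counts are given for SCC15 against OKF6, SCC25 against OKF6 and SCC15 against SCC25 in turn, beside shares over all genes of 26.9%, 18.9% and 20% higher and 23.4%, 11.3% and 23.6% lower. The 17 measured GATOR, KICSTOR and amino acid sensor genes, which report nutrients to mTORC1, held 5, 1 and 3 that were higher and 0, 0 and 1 that were lower. The 13 Rag, Ragulator and folliculin genes held 2, 3 and 2 higher and 1, 1 and 2 lower. The 9 partners of the mTOR and TSC complexes held 2, 2 and 1 higher and 1, 0 and 3 lower. The 17 PI3K and AKT inputs held 3, 2 and 3 higher and 7, 2 and 6 lower, and the 10 stress inputs 3, 1 and 1 higher and 4, 1 and 4 lower. The 13 genes around the 4E-BPs, the S6 kinases and the mRNA cap held 2, 0 and 4 higher and 1, 2 and 0 lower. The 18 other outputs held 5, 4 and 1 higher and 6, 2 and 7 lower. With lists of this size these counts are a description.

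Among partners inside the complexes, DEPTOR, an inhibitory subunit, had 0 reads in the 3 OKF6 libraries, 16 to 23 in SCC15 +YBX1 and 2 to 5 in SCC25 +YBX1. It was higher than in OKF6 in SCC15 and in SCC25 (limma, adjusted p = 1.27e-05 and 0.00165). With OKF6 set at a floor of 3 reads over the group, the fold was 16.8 in SCC15 and 3.76 in SCC25. These folds leave out the counting error of the carcinoma reads, which are few in SCC25. PRR5L, an mTORC2 partner, had 1 to 15 reads in SCC15 +YBX1 and 123 to 163 in SCC25 +YBX1, a log2 change of -4.86 ± 0.80 (adjusted p = 0.000600), and it was also lower in SCC15 than in OKF6 (-2.60 ± 0.80, adjusted p = 0.0198). The Rag and Ragulator group brings mTORC1 to the lysosome. RRAGD was higher in SCC15 than in OKF6 by 3.57 ± 0.78 and than in SCC25 by 5.63 ± 0.78 (limma, adjusted p = 0.00307 and 0.000180). It had 127 to 151 reads per library in SCC15 +YBX1, 2 to 24 in OKF6 and only 1 to 3 in SCC25 +YBX1. LAMTOR1 was higher in SCC25 than in OKF6 by 2.48 ± 0.33 (limma, adjusted p = 0.000329). 

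Among stress inputs, PRKAA2, a catalytic subunit of AMP-activated kinase, had 215 to 323 reads per library in SCC15 +YBX1 and 1 read in all in each of the other lines. The ratio to OKF6 was 704 (95% counting interval 126 to 27830) and that to SCC25 was 687 (123 to 27154). PRKAG2, a regulatory subunit, was lower in SCC25 than in OKF6 by a log2 change of -1.96 ± 0.45 (limma, adjusted p = 0.00764), with -1.14 ± 0.45 in SCC15 (adjusted p = 0.0529). Among PI3K and AKT inputs, the phosphatase INPP4B and the adaptor IRS1 were lower in SCC15 than in OKF6, with changes of -4.49 ± 0.38 and -3.64 ± 0.29 (limma, adjusted p = 3.65e-06 and 2.56e-06). Both were also lower in SCC15 than in SCC25, by -4.22 ± 0.38 and -3.075 ± 0.29 (limma, adjusted p = 7.78e-06 and 1.13e-05). PIK3R1, a regulatory subunit of PI3K, was lower than in OKF6 in SCC25 (-3.09 ± 0.38, adjusted p = 0.000211) and in SCC15 (-3.32 ± 0.38, adjusted p = 3.23e-05).

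Among other outputs of the pathway, SGK1, a kinase activated by mTORC2, was lower in SCC15 than in OKF6 by a log2 change of -5.26 ± 0.53 and than in SCC25 by -6.27 ± 0.53 (limma, adjusted p = 1.21e-05 and 4.65e-06). It had 1 to 7 reads per library in SCC15 +YBX1. PRKCA, another mTORC2 substrate, was higher than in OKF6 in SCC25, by 2.87 ± 0.31 (adjusted p = 8.74e-05), and in SCC15, by 2.20 ± 0.31 (adjusted p = 0.000145).

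The second question was whether the RNA of this axis moved with loss of YBX1, which came with doxycycline in every -YBX1 library. No member passed the test between -YBX1 and +YBX1, a threshold that YBX1 itself missed within each line. By limma 0 of the 12995 genes passed an adjusted p of 0.05 in either line (0% of all genes), and over both lines together 1 gene did (0.0077%), YBX1. At an unadjusted p under 0.05 the counts were 401 genes (3.09%) and 0 members in SCC25, and 302 genes (2.32%) and 1 member, EIF4EBP2, in SCC15. With same-numbered libraries paired within each line they were 720 genes (5.54%) and 2 members, RPTOR and EIF4EBP2, in SCC25, and 552 genes (4.25%) and 2 members, EIF4EBP1 and EIF4EBP2, in SCC15. Over both lines together, RPTOR and EIF4EBP2 were the 2 members among the 280 genes (2.15%) with an unadjusted p under 0.05, and again among 609 genes (4.69%) with pairs. The count of members past the adjusted threshold was 0 throughout. Libraries with and without YBX1 did not overlap for 3 members in SCC15, against 7.04% of all genes, and for 0 members in SCC25, against 7.31%.

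EIF4EBP2 had the largest shift over both lines. In SCC15 it was at 7.57, 7.33 and 7.30 log2 CPM with YBX1 and at 6.22, 7.01 and 7.16 in the knockdown, and in SCC25 at 6.89, 6.50 and 7.13 with YBX1 and at 6.36, 6.13 and 6.60 in the knockdown. It was lower in each of the 6 same-numbered pairs, by -0.53, -0.37 and -0.53 in SCC25 and by -1.35, -0.31 and -0.13 in SCC15. The mean log2 change over both lines was -0.54 ± 0.17 (68.9% of the +YBX1 level, 95% interval -0.90 to -0.18). Its unadjusted p was 0.00652 and its adjusted p 0.9999 (limma), or 0.00375 and 0.926 with pairs. Without SCC15 -YBX1 replicate 1, which stood apart from the other 2 libraries of its group over all genes and was the lowest for this gene, the change in SCC15 went from -0.60 to -0.31 and that over both lines from -0.54 to -0.39.

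RPTOR was lower in each of the 6 pairs as well, by -0.19, -0.48 and -0.74 in SCC25 and by -0.01, -0.45 and -0.28 in SCC15. In the knockdown it was at 4.76, 4.05 and 4.32 log2 CPM in SCC25, which overlapped with the +YBX1 libraries. In SCC15 -YBX1 it was at 4.51, 4.51 and 4.36, only just under the lowest SCC15 +YBX1 library at 4.53. The mean change was -0.36 ± 0.16 (unadjusted p = 0.0442, adjusted p = 0.9999, limma). Over all genes, 227 (1.75%) were lower in 6 of 6 pairs and 191 (1.47%) higher.

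EIF4EBP1 went from 5.70, 5.81 and 6.01 log2 CPM in SCC15 +YBX1 to 7.02, 6.36 and 6.1 in SCC15 -YBX1. The knockdown libraries lay above all +YBX1 libraries, with replicate 3 just clear of them, and the change was 0.66 (95% interval -0.07 to 1.39, limma, adjusted p = 0.9999), or 0.39 without SCC15 -YBX1 replicate 1. In SCC25 the knockdown libraries, at 5.98, 7.58 and 6.70, lay on both sides of the +YBX1 libraries (-0.10, 95% interval -0.83 to 0.63). The difference of this response between the lines was 0.76 (95% interval -0.28 to 1.79, adjusted p = 1). RPS6KB1 was higher in 5 of 6 pairs, at 4.33, 3.71 and 4.2 log2 CPM in SCC25 -YBX1 and at 5.09, 4.50 and 4.48 in SCC15 -YBX1, with a mean change of 0.33 (95% interval -0.09 to 0.75).

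The other 6 members gave intervals around 0 over both lines. The mean changes with 95% intervals were -0.10 (-0.38 to 0.18) for MTOR, 0.18 (-0.30 to 0.66) for RICTOR, -0.14 (-0.55 to 0.28) for MLST8, -0.11 (-0.49 to 0.27) for TSC1, 0.02 (-0.29 to 0.33) for TSC2 and -0.02 (-0.30 to 0.26) for RHEB. RICTOR was higher in 5 of 6 pairs. For MTOR and TSC1 all 3 SCC25 pairs were lower, with changes of -0.29 and -0.35, and 2 of 3 SCC15 pairs higher, with 0.09 and 0.13; the difference between the lines was 0.38 (95% interval -0.17 to 0.94) for MTOR and 0.48 (-0.28 to 1.24) for TSC1. No member passed the test of a different response in the lines (adjusted p = 1 for all 10), where 0 of all genes passed it and 294 (2.26%) had an unadjusted p under 0.05, 0 of them members (537 genes, 4.13%, and 0 members with pairs). MTOR, RHEB and RICTOR, whose promoters hold the Y-box core printed above, were not called, and neither were the members without it. The threshold missed YBX1 itself within each line, so nothing about the core follows from these calls. Of the 97 other pathway genes, 0 passed the test in either line, and 3 in SCC25 and 2 in SCC15 had an unadjusted p under 0.05, or 9 and 6 with pairs.

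**Figure D2:**
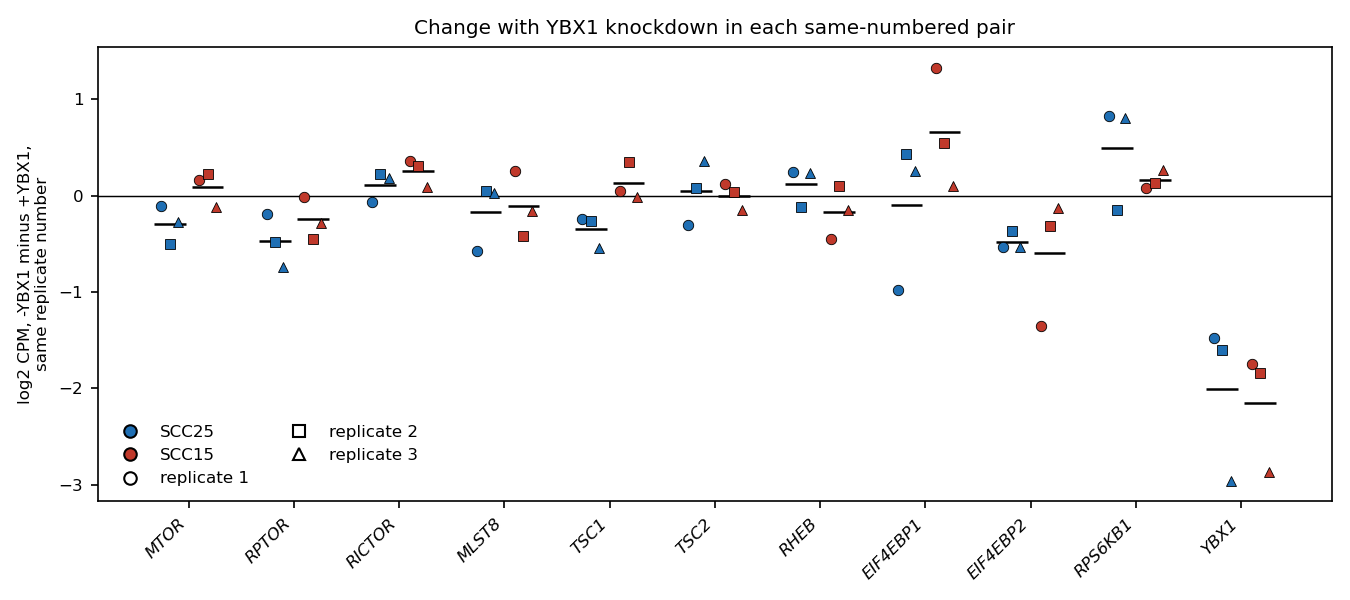
Difference in log2 CPM between the -YBX1 and the +YBX1 library of the same replicate number for the 10 members and YBX1, with SCC25 in blue, SCC15 in red, 1 symbol per replicate and a black line at the mean of a line's 3 pairs. All 6 points lie below 0 for RPTOR, EIF4EBP2 and YBX1.

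The order of the 5 groups followed the line rather than YBX1 for RICTOR and TSC2, since both SCC15 groups were apart from the other 3. RICTOR fell in the order OKF6, SCC25 -YBX1, SCC25 +YBX1, SCC15 -YBX1, SCC15 +YBX1, and the only neighbours whose libraries did not overlap were SCC25 +YBX1 and SCC15 -YBX1, 1.02 log2 units apart. TSC2 ran SCC15 -YBX1, SCC15 +YBX1, SCC25 -YBX1, SCC25 +YBX1, OKF6, with the only gap between SCC15 +YBX1 and SCC25 -YBX1, at 0.95. MLST8 had its only gap between SCC15 -YBX1 and SCC25 +YBX1, at 0.54, and RPS6KB1 between OKF6 and SCC25 -YBX1, at 0.44. EIF4EBP1 had gaps between both SCC15 groups and between SCC15 +YBX1 and OKF6, and EIF4EBP2 between SCC15 +YBX1 and the next group, SCC25 +YBX1. RPTOR had its gap between both SCC15 groups, whose nearest libraries almost touched. For MTOR, TSC1 and RHEB all neighbours overlapped.

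Across the 15 libraries, RICTOR and TSC2 had a Pearson correlation of -0.85, MLST8 and TSC2 of 0.85 and MTOR and TSC1 of 0.72. These describe 3 lines more than 15 independent points, since libraries of a line share their level. The genes most like a member over the same 15 libraries, among 6464 or 6465 genes with a mean above the median, were BACH1 (0.95) and HIF1A (0.95) for RICTOR, CD320 (0.96) and POLDIP3 (0.94) for TSC2, FBXW4 (0.95) and GSTM3 (0.93) for EIF4EBP1, and ASF1B (0.93) and LSM10 (0.92) for RPTOR. MLST8 was most like TIMM13 (0.92) and LAMTOR2 (0.92), a Ragulator subunit, and RPS6KB1 most like PTCD3 (0.92) and AASS (0.88). MTOR was most like STRN3 (0.89) and CDK12 (0.86), RHEB most like HNRNPH2 (0.88) and SNRPE (0.85), EIF4EBP2 most like COPS9 (0.87) and LEPROTL1 (0.86), and TSC1 most like WDR36 (0.75) and DNM1L (0.74).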

How the data were processed

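RNA of 15 samples of OKF6, SCC15 and SCC25 cells was sequenced from the 3′ end (QuantSeq 3′ FWD). The submitters' processing notes name cutadapt, HISAT2, featureCounts and limma with hg38. The authors deposited 2 tables of log2 CPM values, made with 0.5 reads added and library sizes multiplied by normalisation factors (0.852 to 1.23). Reads recovered from these values were whole for 100% of entries (tolerance 0.05). The 6 +YBX1 libraries stand in both tables and are shared by the line and knockdown comparisons.

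Tests used limma 3.58.1 (R 4.3.3) on the deposited log2 values (lmFit, eBayes with trend, two-sided, all groups of a table in the fit, Benjamini-Hochberg over 12995 genes, threshold 0.05), tested on simulated data. Errors after ± are limma standard errors. Intervals from reads cover counting error only, and floors cover that of the lower group only. Replicate numbers were not in the model. Within a line, deviations of same-numbered libraries with and without YBX1 had correlations of 0.12 to 0.50 over genes above median expression. Those of different-numbered libraries ran from -0.53 to 0.35, so the ranges overlap and the numbers do not mark every pair. Paired values are given where they bear on a count. The pairing rests on the labels' numbers.

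Members and gene lists were chosen with earlier results of these data known. Named are all members, YBX1, per comparison the 3 pathway genes that changed most in each direction among those past the threshold, and the 2 genes most correlated with each member, and 1 pathway gene that this rule names is not reported here. Pathway genes were matched by symbol or Entrez ID through a RefSeq table. Alternatives were other scalings, fits, filters, thresholds and each library left out. Three-prime pieces were mapped with minimap2 2.31. Figures used matplotlib 3.10.9 in Python 3.11.15.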

Additional observations from a re-analysis of the deposited data

How the results depend on the processing

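In the knockdown comparisons the count of members called was 0 under every alternative run, which says nothing about stability, since hardly any gene passed the adjusted threshold in these comparisons. The number of members differing between SCC15 and OKF6 went from 5 to 3 with the replicate block, with only the groups compared and without the variance trend, to 2 at a threshold of 0.01, and between 2 and 5 with a library left out. For SCC25 against OKF6 it went from 3 to 1 with only the groups compared and at 0.01, and between 1 and 3 with a library left out. For SCC15 against SCC25 it went from 3 to 7 with only the groups compared, which added MTOR, MLST8, EIF4EBP1 and EIF4EBP2, to 0 at 0.01, and between 0 and 5 with a library left out. Why the fit with fewer groups moved these counts was not tested. The pathway count for SCC25 against OKF6 lay between 16 and 34 with a library left out. RICTOR and TSC2 against OKF6 in SCC15 and EIF4EBP1 in SCC25 were called under all 20 alternatives at the 0.05 threshold. Between OKF6 and the +YBX1 groups the replicate numbers share only a number (same-numbered correlations from -0.20 to 0.26), and that block lost MTOR and RPTOR (adjusted p = 0.0783 and 0.0622) in SCC15 and RPTOR (0.0553) in SCC25. The block within lines changed no call in the knockdown.

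Scaling moved the median of all genes for SCC15 against SCC25 from -0.01 to 0.14 with equal medians, 0.17 with quantiles and 0.34 with no normalisation factor, an alternative chosen after seeing the data like the within-line block and the ratios, and the share of higher genes among those called from 45.9% to 61.7%. For SCC25 against OKF6 that share went from 62.5% to 52.1% with quantiles. Directions turned for RPTOR in SCC15 against SCC25 (0.019 with medians, 0.039 with quantiles, 0.21 with no factor), TSC1 there (0.11, no factor), RHEB in SCC25 against OKF6 (-0.11, no factor), RPS6KB1 in SCC15 against OKF6 (-0.0027, voom weights) and TSC2 in the SCC15 knockdown (-0.026 with medians, -0.00037 with 2 reads added, -0.0011 with voom). None of these was called. Changes not called also turned with a library left out, with these ranges. In SCC15 against OKF6 the change ran for RPS6KB1 from -0.23 to 0.16. In SCC25 against OKF6 the change ran for MTOR from -0.27 to 0.0566, RICTOR from -0.42 to 0.0318, MLST8 from -0.40 to 0.72, TSC1 from -0.22 to 0.12, TSC2 from -0.10 to 0.51 and RHEB from -0.25 to 0.24. In the SCC25 knockdown the change ran for RICTOR from -0.13 to 0.30, MLST8 from -0.39 to 0.0993, TSC2 from -0.13 to 0.26 and EIF4EBP1 from -0.51 to 0.29. In the SCC15 knockdown the change ran for MLST8 from -0.31 to 0.00487, TSC2 from -0.0465 to 0.0884 and RPS6KB1 from -0.0385 to 0.40. In the knockdown over both lines the change ran for TSC2 from -0.0634 to 0.13 and RHEB from -0.10 to 0.0599. In the knockdown in SCC15 minus that in SCC25 the change ran for RICTOR from -0.0487 to 0.39, MLST8 from -0.21 to 0.29, TSC2 from -0.26 to 0.13 and EIF4EBP2 from -0.30 to 0.17. The depth of 24 to 33 reads for RICTOR in SCC15 +YBX1 limits the precision of that fold.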
